A study of Rattus norvegicus with 12 samples.

Results

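9 genes for enzymes that make, convert or remove phosphoinositides and phosphatidic acid were followed in primary rat oligodendrocyte precursor cells (OPCs). They were chosen by name, with earlier results of these data known, among genes that the study called as different with cytokines. They include the diacylglycerol kinases Dgkh and Dgki, the phosphoinositide kinases Pik3cb, Pik3c2b and Pip5k1b and the phosphatase Inppl1. The others are the myotubularin family member Mtmr11, the phospholipase Pld1 and the acyltransferase Agpat4. All 9 genes were found among the 30562 genes of the count files, and all 9 passed the filter on low counts (a mean of at least 5 counts per library) that left 13348 genes for testing. The libraries hold total RNA from wild-type cortical cultures of newborn Sprague-Dawley rat pups (postnatal days 0 to 2, males and females pooled), in which OPCs had been shaken off a mixed glial layer. The cultures were treated when they were moved to differentiating conditions. CTL cultures received neither cytokines nor galinex, and their label names no treatment, while the protocol describes DMSO, the vehicle, in place of galinex for cultures without it. GAL cultures received 10 nM galinex, an agonist of the G protein-coupled receptor GPR17. CTK-2 cultures received 3 pro-inflammatory cytokines, IFN-γ, TNF-α and IL-1β, each at 2 ng/mL. CTK2+GAL cultures received the same cytokines and, 6 h later, 10 nM galinex. RNA was taken 24 h after the galinex step, from 3 libraries in each of the 4 groups, 12 in all. The labels do not say whether these were separate cultures, so the p-values below measure the spread between libraries, which may be technical.

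Phosphoinositides are membrane lipids whose inositol ring carries phosphates that kinases add and phosphatases remove, and each form recruits its own set of proteins to a membrane. Phosphatidic acid, the simplest phospholipid, is both a signal and a building block: it is made by diacylglycerol kinases, by phospholipase D and by acylation of lysophosphatidic acid, and it feeds the synthesis of other membrane lipids. In oligodendrocytes, PI 3-kinase signalling is known for its part in differentiation and in the growth of the myelin membrane.

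In the cultures given cytokines, the message of Pld1 stood at 0.191 of its level in cultures without them (CTK2+GAL against GAL), and those of Agpat4 and Inppl1 were also lower. Those of Pik3c2b, Pip5k1b, Pik3cb and Dgki were higher. These 7 differences passed the test between CTK2+GAL and GAL cultures, as did 17.4% of all tested genes. Of the named genes called in CTK-2 against CTL, as the 9 were, 86.4% passed it in the same direction. Galinex was not accompanied by a called difference in any of the 9 genes, with or without cytokines, nor in any of the 13348 tested genes. As these are bulk libraries, fewer cells of one type and less RNA per cell cannot be told apart.

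The gene symbols need a remark before the values. The count files give gene identifiers only, and symbols came from a table of the study that lists genes it called in CTK-2 against CTL cultures. The 9 genes were therefore bound to differ in that comparison, and their values there are given as a description with no test. The comparison of CTK2+GAL with GAL cultures sets 6 other libraries against each other and was tested. It is not wholly separate from that choice of genes, as the spread behind its SE and p was estimated from all 12 libraries. GAL libraries also deviated together with CTL libraries of the same number (r of 0.263, 0.268 and 0.605). The galinex comparisons and the interaction reuse CTL or CTK-2 libraries, so their values are not free of that choice of genes. Throughout, a gene was called at an adjusted p of at most 0.05 (edgeR quasi-likelihood F test, Benjamini-Hochberg over the 13348 genes) and a log2 fold change of at least 0.59 in either direction. Levels are given as CPM, that is, read counts scaled to a common library size after TMM correction of the library totals. These totals ran from 2600797 counts in GAL replicate 1 to 8978185 in CTK2+GAL replicate 3.

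The stretches of DNA before the start sites are shown for the 4 called genes with exactly 1 entry in the RefSeq promoter table (build GRCr8), 2 that fell and 2 that rose with cytokines. Each is the 250 bases before the annotated start, 5′ to 3′ on the gene's strand, and capitals mark matches to GGGCGG (the GC box) or CCAAT (the CCAAT box) on either strand.
Pld1: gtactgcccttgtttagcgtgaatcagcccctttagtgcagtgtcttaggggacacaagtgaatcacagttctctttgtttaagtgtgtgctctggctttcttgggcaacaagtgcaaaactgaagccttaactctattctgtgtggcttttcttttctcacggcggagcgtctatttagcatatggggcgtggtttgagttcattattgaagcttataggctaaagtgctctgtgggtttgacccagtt
Agpat4: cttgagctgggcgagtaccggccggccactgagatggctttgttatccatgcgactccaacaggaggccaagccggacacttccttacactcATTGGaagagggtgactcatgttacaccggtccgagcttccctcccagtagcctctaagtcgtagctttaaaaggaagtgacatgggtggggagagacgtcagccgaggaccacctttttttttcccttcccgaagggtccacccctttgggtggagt
Pip5k1b: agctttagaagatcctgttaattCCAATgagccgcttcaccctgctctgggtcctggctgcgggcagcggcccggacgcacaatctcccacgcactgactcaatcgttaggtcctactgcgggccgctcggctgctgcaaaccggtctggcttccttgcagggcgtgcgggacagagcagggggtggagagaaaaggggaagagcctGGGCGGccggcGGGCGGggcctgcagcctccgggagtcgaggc
Dgki: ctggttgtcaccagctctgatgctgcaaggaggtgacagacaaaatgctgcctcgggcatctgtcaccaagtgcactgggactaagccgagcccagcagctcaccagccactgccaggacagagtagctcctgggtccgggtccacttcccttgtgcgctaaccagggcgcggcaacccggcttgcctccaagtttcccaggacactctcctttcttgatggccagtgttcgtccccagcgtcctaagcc
They lie at chr2:112821926-112822175 on the plus strand for Pld1 and, on the minus strand, at chr1:51180972-51181221 for Agpat4, chr1:231610093-231610342 for Pip5k1b and chr4:66839791-66840040 for Dgki. The Pld1 start in the table lies 44.36 kb inside the span of the RefSeq gene. Windows of 300 bases (250 before to 50 after the start) were found for 7 of the 9 genes, 2 of them for Inppl1, and none for Pik3cb or Pik3c2b. Letters of sites for factors that act after IFN-γ, TNF-α or IL-1β were searched on both strands of these 8 windows. TTCNNNGAA (core of the IFN-γ activation site) was in none of the 8 and in 8.87% of all 33469 windows of the table, a loose form of the NF-κB site with 3 free bases in none and in 5.57%, a stricter NF-κB site with every base set in none and in 0.0747%, and the core of the interferon-stimulated response element in none and in 1.36%. This says only that these letters are not in these windows. The GC box and the CCAAT box were added after those searches had found nothing. The GC box was in 4 of the 8 windows, those of Pip5k1b and Dgkh and both of Inppl1, against 33.1% of all windows, and the CCAAT box was in 4 against 37.5%. The windows of Pld1 and Dgki held neither. Base composition did not divide the genes by direction: the share of G and C was 46.3% for Pld1, 53.3% for Agpat4 and 72% and 63% for the Inppl1 windows, and 61.3% for Dgki, 68% for Pip5k1b and 77% for Dgkh, with a median of 51.7% over all windows.

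Levels per exon length (CPM per kilobase of merged exons) allow the genes to be ordered. In CTL cultures Inppl1 had the highest level, 96.2 ± 3.33 (SD, n = 3) CPM per kilobase, at percentile 95.6 of the 13348 genes. Agpat4 followed with 54.9 ± 1.29 and Pld1 with 34.6 ± 6.31. Far below came Dgki with 6.53 ± 0.308 CPM per kilobase, Pip5k1b with 5.92 ± 0.429, Pik3cb with 4.01 ± 0.256, Pik3c2b with 3.83 ± 0.53 and Dgkh with 2.62 ± 0.366. Mtmr11, at 0.826 ± 0.402 CPM per kilobase and percentile 10, was lowest. The libraries of Dgki and Pip5k1b overlapped, as did those of Pik3cb and Pik3c2b, and the other neighbours in this order stood apart. Under cytokines the top 2 and the bottom 2 places were held by the same genes, while those between changed. In CTK-2 cultures Pip5k1b came next with 12.8 ± 0.4 CPM per kilobase, then Pik3c2b with 12.2 ± 0.428 and Dgki with 10.2 ± 1.56. Pld1 had moved from place 3 to place 7, at 6.5 ± 0.432 CPM per kilobase beside Pik3cb at 6.81 ± 1.18, whose libraries overlapped with it. Those of Pip5k1b and Pik3c2b overlapped as well, as did those of Pik3c2b and Dgki. GAL cultures had the order of CTL cultures except that Pik3c2b and Pik3cb, which overlapped in both, changed places, and CTK2+GAL cultures had the order of CTK-2 cultures.

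**Figure D1:**
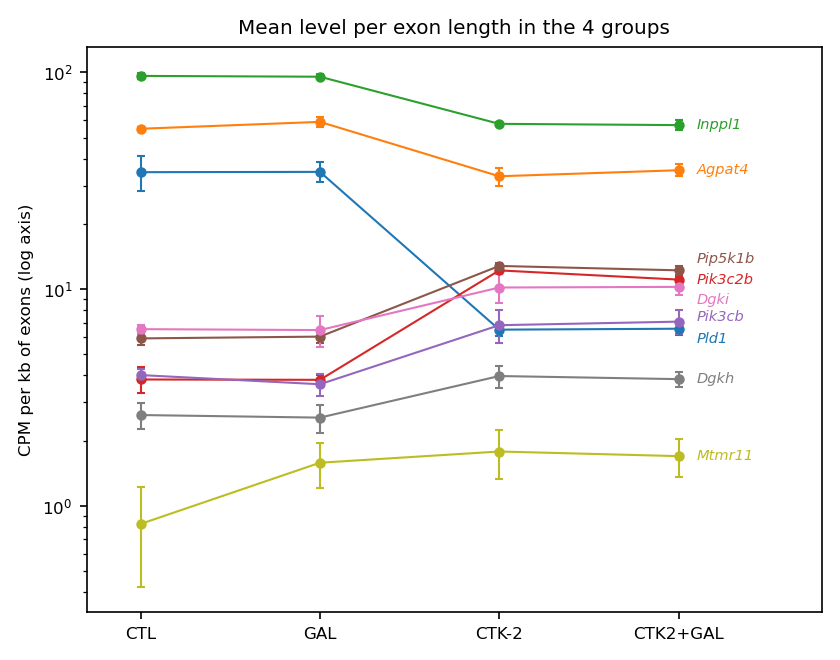
Mean level of the 9 genes in CPM per kilobase of exons (log axis) in the 4 groups; points are means of 3 libraries, bars are the SD, and lines only join the same gene. Pld1 drops from 34.6 in CTL to 6.5 in CTK-2 cultures, below Pip5k1b, Pik3c2b and Dgki, while Inppl1 and Agpat4 stay at the top.

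Before the comparisons, the libraries themselves were examined. No 2 replicates agreed within sampling noise. The CTL library nearest to the cytokine groups was replicate 3 for 4 of the 9 genes (Pld1, Agpat4, Pik3c2b and Mtmr11) and replicate 1 for the other 5. GAL replicate 3 had the lowest Pld1 level of the GAL group. Values without a library are given where they matter. Only 6 of the 35 cell type markers searched had a symbol, 2 of 10 for the oligodendrocyte lineage, 3 of 10 for microglia, 1 of 5 for neurons and none for astrocytes or endothelium. Like the 9 genes, these 6 were named through genes called in CTK-2 against CTL and so were bound to differ with cytokines. Of the lineage markers, Pdgfra, a receptor of precursor cells, rose by 0.77 on the log2 scale in CTK2+GAL against GAL cultures. Microglial markers moved with the cytokines as a sum: the summed level of Csf1r, P2ry12 and Ptprc was 1.89 to 7.62 CPM in CTL and 2.51 to 7.22 CPM in GAL libraries, and 14.4 to 19.2 CPM in CTK-2 and 14 to 16.2 CPM in CTK2+GAL libraries, with Ptprc at 0 counts in CTL replicate 2 and GAL replicates 1 and 2. In CTK2+GAL against GAL cultures P2ry12 and Ptprc were called higher. Csf1r was not (log2 fold change 0.61, adjusted p = 0.396, edgeR), and its libraries overlapped. The neuronal marker Tubb3 was at 80.1 to 98.7 CPM in GAL and 171 to 181 CPM in CTK2+GAL libraries. The part of these shifts in the differences below was not tested.

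The comparison of cytokine-treated with untreated cultures, made in the presence of galinex on both sides, called 7 of the 9 genes, 4 higher and 3 lower. Over all tested genes 17.4% were called, 11.7% higher and 5.74% lower. As the symbols come from genes called in CTK-2 against CTL, the nearer background is the 2311 genes called there in the present fit (17.3% of those tested, 11.5% higher and 5.79% lower), of which 80% were called in the same direction in CTK2+GAL against GAL and none in the other. Among the 1702 of these with a symbol the share was 86.4%, and among the 9 genes it was 77.8%. The log2 fold changes of the 9 genes ran from -2.39 to 1.55 with galinex and from -2.41 to 1.66 without. In both comparisons 6 were positive and 3 negative. Without galinex such values were bound to lie away from 0.

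**Figure D2:**
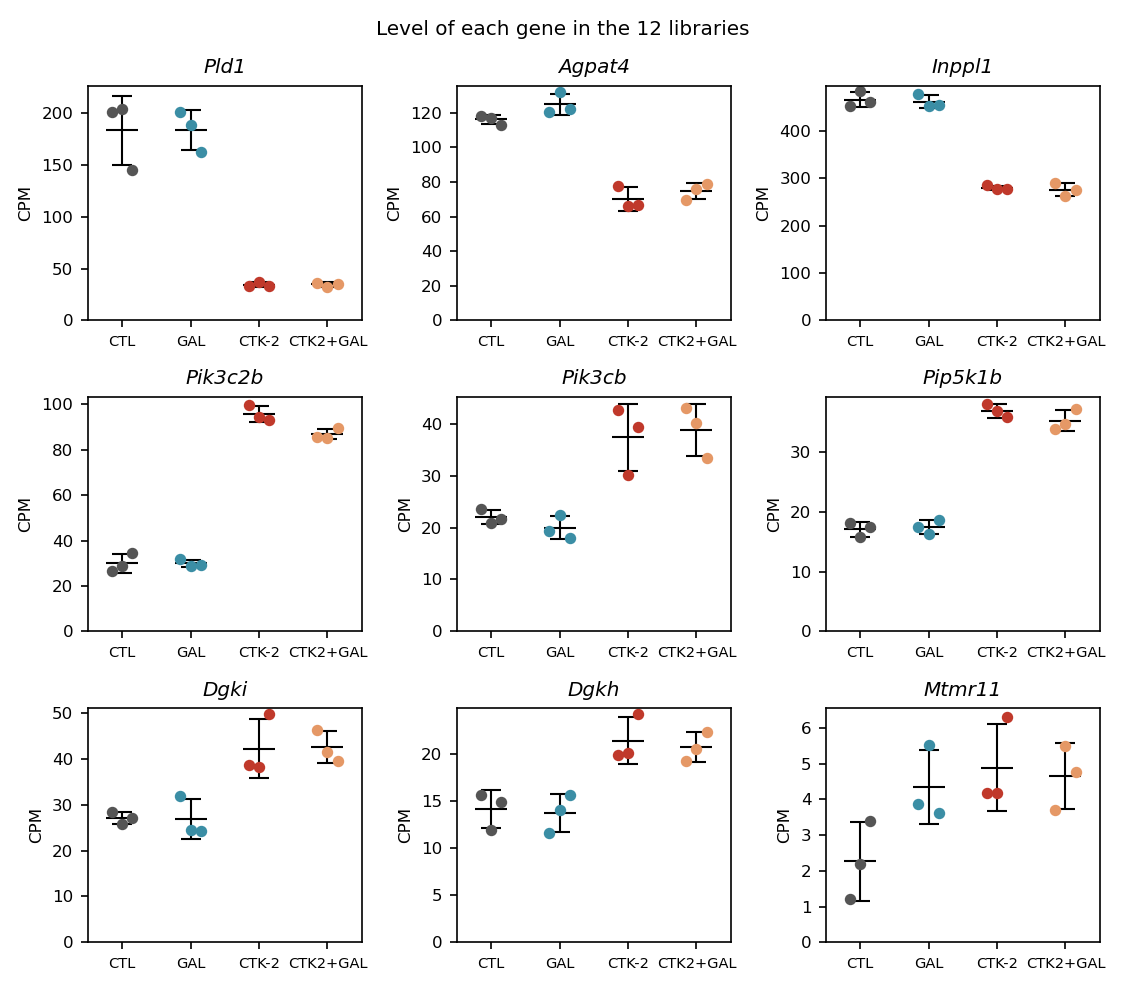
Level of each gene in CPM (vertical axis, from 0) in the 12 libraries; points are libraries in the order of replicates 1 to 3, the long bar is the group mean and the error bar the SD (n = 3). The cytokine libraries of Pld1, Agpat4 and Inppl1 lie below all libraries without cytokines. Those of Pik3c2b, Pik3cb, Pip5k1b, Dgki and Dgkh lie above all libraries without cytokines, and those of Mtmr11 overlap with the GAL libraries. Over all tested genes, libraries did not overlap for 49.5% in CTK2+GAL against GAL and for 49.1% in CTK-2 against CTL. The genes shown were named through genes called in CTK-2 against CTL and so were bound to differ there.

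Diacylglycerol kinases phosphorylate diacylglycerol to phosphatidic acid and so end one lipid signal while making another. Dgki, which encodes the iota isoform (mRatBN7.2, chromosome 4, 65420108 to 65872733, minus strand, 36 merged exons), was measured at 31.8, 24.5 and 24.2 CPM in the GAL libraries and at 46.3, 41.5 and 39.5 CPM in the CTK2+GAL libraries. All 3 cytokine libraries were above all 3 GAL libraries, as was so, higher, for 25.5% of all tested genes. The log2 fold change was 0.70 ± 0.12 (SE), with an adjusted p of 0.000124 (edgeR). Without galinex the levels were 28.4, 25.8 and 27.1 CPM in the CTL libraries and 38.7, 38.2 and 49.7 CPM in CTK-2 libraries, where replicate 3 was the highest of its group, and the log2 fold change was 0.64 ± 0.12 (SE), and 0.50 without that library, under the threshold. Dgkh, the eta isoform (chromosome 15, 53991481 to 54150706, minus strand, 32 merged exons), was at 11.6, 14.1 and 15.6 CPM in GAL and 19.2, 20.6 and 22.4 CPM in CTK2+GAL libraries. Its libraries did not overlap either, but its log2 fold change of 0.56 ± 0.14 (SE; adjusted p = 0.0035, edgeR) lay under the threshold of 0.59, so it was not called. It was called with library totals in place of TMM scaling (0.59), without GAL replicate 3 (0.66) or without CTK2+GAL replicate 1 (0.61). Without galinex its level was 15.7, 11.9 and 14.9 CPM in the CTL libraries and 19.9, 20.2 and 24.3 CPM in CTK-2 libraries, a log2 fold change of 0.59 ± 0.14 (SE) at the very threshold, and 0.49 without CTL replicate 2 or without CTK-2 replicate 3. The ratio of the 2 isoforms within a library overlapped between all groups: Dgki was at 2.51 ± 0.265 (SD, n = 3) times the level of Dgkh per exon length in CTL and at 2.55 ± 0.101 times in CTK-2 libraries, and at 2.61 ± 0.828 times in GAL and 2.68 ± 0.417 times in CTK2+GAL libraries.

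The PI 3-kinases were both higher in cytokine libraries, by different amounts. Pik3c2b (chromosome 13, 44495050 to 44555612, plus strand, 33 merged exons) encodes the beta isoform of the class II enzymes, which phosphorylate phosphatidylinositol and its monophosphate in cell membranes. It was at 31.8, 28.6 and 29.4 CPM in GAL libraries and at 85.7, 85.4 and 89.4 CPM in CTK2+GAL libraries. The groups were far apart, with each varying by less than 5 CPM between its libraries. Its log2 fold change of 1.55 ± 0.09 (SE; 95% interval 1.38 to 1.73; adjusted p = 8.09e-11, edgeR) was the highest of the 9. Without galinex it was at 26.7, 28.8 and 34.7 CPM in the CTL libraries and at 99.6, 94.5 and 93.2 CPM in the CTK-2 libraries, a log2 fold change of 1.66 ± 0.08 (SE), and of 1.79 without CTL replicate 3. Pik3cb (chromosome 8, 99594644 to 99699663, minus strand, 25 merged exons), the beta catalytic subunit of the class I enzymes that make the trisphosphate read by AKT, was at 19.4, 22.4 and 18.0 CPM in GAL and 43.0, 40.1 and 33.3 CPM in CTK2+GAL libraries. All cytokine libraries were above all others, with a log2 fold change of 0.93 ± 0.14 (SE; 95% interval 0.64 to 1.22; adjusted p = 2.85e-05, edgeR). The intervals of the 2 kinases did not overlap. Without galinex Pik3cb was at 23.6, 20.9 and 21.6 CPM in the CTL libraries and at 42.7, 30.2 and 39.3 CPM in the CTK-2 libraries, a log2 fold change of 0.76 ± 0.13 (SE) in which CTK-2 replicate 2 was the lowest of its group. Per exon length, Pik3c2b stood at 0.96 ± 0.167 (SD, n = 3) times Pik3cb in CTL libraries and at 1.06 ± 0.144 times in GAL libraries, and at 1.83 ± 0.315 and 1.58 ± 0.254 times in CTK-2 and CTK2+GAL libraries. The highest ratio without cytokines was 1.15 and the lowest with them 1.39.

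Pip5k1b (chromosome 1, 221914159 to 222183672, minus strand, 15 merged exons) encodes a phosphatidylinositol 4-phosphate 5-kinase, which makes the bisphosphate that PI 3-kinases and phospholipase C use and that phospholipase D needs as a cofactor. It was at 17.5, 16.2 and 18.6 CPM in GAL and at 33.8, 34.6 and 37.2 CPM in CTK2+GAL libraries. All cytokine libraries lay above all GAL libraries, with a fold change of 2.03 (log2 fold change 1.02 ± 0.10 SE; adjusted p = 1.49e-07, edgeR). Without galinex it was at 18.1, 15.7 and 17.5 CPM in the CTL libraries and at 38.1, 36.9 and 35.8 CPM in the CTK-2 libraries, with a log2 fold change of 1.10 ± 0.10 (SE). Its span overlaps with that of 1 annotated gene on its own strand. Whether the 2 genes share exon bases, where reads may be left out or split, was not examined.

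Inppl1 (chromosome 1, 156183059 to 156197500, minus strand, 29 merged exons) encodes SHIP2, which removes the 5-phosphate from the trisphosphate product of class I PI 3-kinases. It was at 477, 453 and 455 CPM in GAL libraries and at 291, 262 and 275 CPM in CTK2+GAL libraries. No library of one group came near the other, as was so, lower, for 24% of all tested genes. It fell by 0.74 ± 0.06 (SE) on the log2 scale, to 0.598 of the GAL level (adjusted p = 7.21e-09, edgeR). Without galinex it was at 452, 484 and 461 CPM in the CTL libraries and at 285, 278 and 277 CPM in the CTK-2 libraries, a log2 fold change of -0.73 ± 0.06 (SE). It overlaps with 1 annotated gene on the other strand. The authors counted by strand. Its level per exon length was 25 ± 0.674 (SD, n = 3) times that of Pik3c2b in GAL libraries and 5.16 ± 0.294 times in CTK2+GAL libraries.

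Mtmr11 (chromosome 2, 183723530 to 183732148, plus strand, 17 merged exons) belongs to the myotubularins, a family of 3-phosphatases, and is counted among its members without catalytic activity. It had between 7 and 43 counts per library, so its values are the least precise of the 9. It was at 3.88, 5.53 and 3.61 CPM in GAL and 3.69, 5.50 and 4.76 CPM in CTK2+GAL libraries. These groups overlapped, and the log2 fold change of 0.08 ± 0.30 (SE; 95% interval -0.54 to 0.70; adjusted p = 0.863, edgeR) did not pass the test. Without galinex it was at 1.20, 2.19 and 3.40 CPM in the CTL libraries and at 4.18, 4.18 and 6.30 CPM in the CTK-2 libraries. There the log2 fold change was 1.09 ± 0.33 (SE), and it ran from 0.78 without CTL replicate 1 to 1.55 without CTL replicate 3.

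Pld1 (chromosome 2, 110893608 to 111047692, plus strand, 27 merged exons) encodes phospholipase D1, which cleaves phosphatidylcholine to phosphatidic acid and choline. It was at 201, 188 and 163 CPM in GAL libraries and at 36.5, 32.3 and 35.5 CPM in CTK2+GAL libraries. The lowest GAL library was more than 100 CPM above the highest CTK2+GAL library. Pld1 fell by 2.39 ± 0.12 (SE; 95% interval -2.64 to -2.14) on the log2 scale, to 0.191 of the GAL level (adjusted p = 2.41e-11, edgeR), the 21st lowest fold change of the 13348 genes. Without galinex it was at 201, 204 and 145 CPM in the CTL libraries and at 33.0, 37.1 and 33.2 CPM in the CTK-2 libraries. The log2 fold change was -2.41 ± 0.12 (SE), the 17th lowest of all tested genes, and -2.55 without CTL replicate 3, the lowest of its group. The spread among libraries without cytokines was wider than among those with them, with an SD of 33.4 CPM for CTL and 2.29 CPM for CTK-2. The means differed as well. As a share of the mean the SD was 18.2% for CTL and 10.5% for GAL, and 6.65% for CTK-2 and 6.33% for CTK2+GAL cultures.

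Agpat4 (chromosome 1, 48527323 to 48633345, minus strand, 11 merged exons) encodes an acyltransferase that turns lysophosphatidic acid into phosphatidic acid. It was at 121, 132 and 122 CPM in GAL and at 69.6, 75.6 and 79.0 CPM in CTK2+GAL libraries. All cytokine libraries were below all GAL libraries, and it fell by 0.74 ± 0.07 (SE) on the log2 scale, to 0.599 of the GAL level (adjusted p = 1.09e-07, edgeR). Without galinex it was at 118, 117 and 113 CPM in the CTL libraries and at 77.8, 66.0 and 66.5 CPM in the CTK-2 libraries, a log2 fold change of -0.73 ± 0.07 (SE). Pld1 fell further than Agpat4, with intervals that did not overlap. Per exon length Pld1 stood at 0.589 ± 0.0676 (SD, n = 3) times the level of Agpat4 in GAL and 0.186 ± 0.0205 times in CTK2+GAL libraries, and at 0.629 ± 0.102 and 0.198 ± 0.0274 times in CTL and CTK-2 libraries. The ratio of Pld1 to Pip5k1b per exon length went from 5.79 ± 0.873 (SD, n = 3) in GAL to 0.539 ± 0.0436 in CTK2+GAL libraries.

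**Figure D3:**
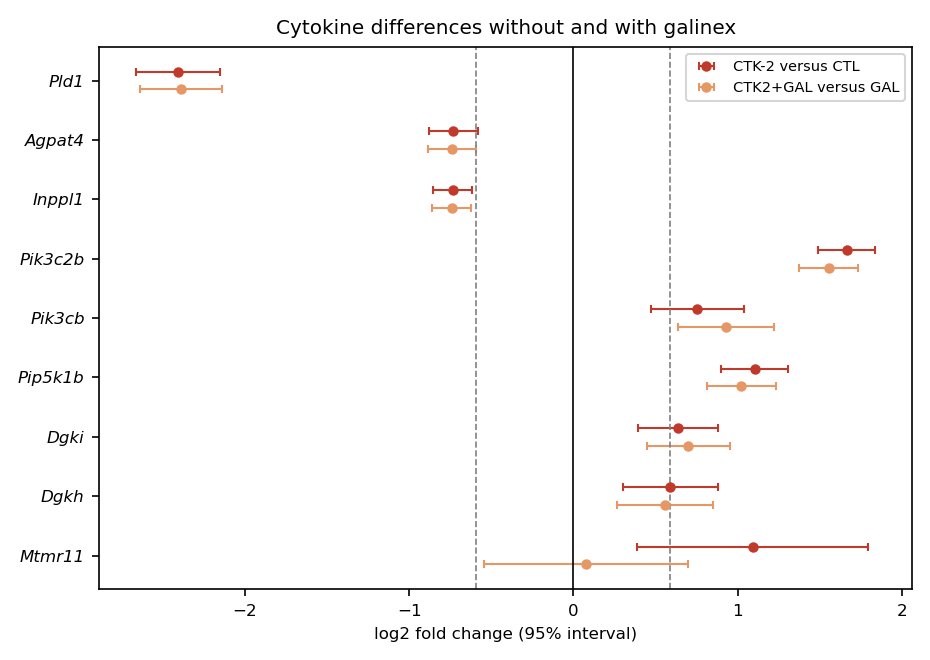
Log2 fold change of the 9 genes between cultures with and without cytokines, in the absence (CTK-2 versus CTL) and the presence (CTK2+GAL versus GAL) of galinex; points are edgeR estimates from 3 libraries a group, bars are 95% intervals, the solid line is at 0 and dashed lines are at 0.59 in each direction. The estimates lie close together for 8 genes, and for Mtmr11 they are 1.09 and 0.08.

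Whether the cytokine difference itself depended on galinex was tested as an interaction. None of the 9 genes was called, nor any of the 13348 (0% called, edgeR and DESeq2). An unadjusted p below 0.05 was reached by 376 genes in edgeR (2.82% of those tested) and by 123 in DESeq2. For Pld1 the interaction was 0.02 on the log2 scale, with a 95% interval of -0.35 to 0.38. The narrowest interval was that of Inppl1, -0.18 to 0.16. For Mtmr11 the interaction was -1.01 (95% interval -1.96 to -0.07; unadjusted p = 0.0369, adjusted p = 1, edgeR) and did not pass the test, so the 2 values of its cytokine difference were not shown to differ. The CTL and CTK-2 libraries through which the gene was named enter this value, which can move it away from 0.

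The effect of galinex was examined with and without cytokines. In CTK2+GAL against CTK-2 cultures none of the 9 genes was called and none of all genes (0%, edgeR and DESeq2). An unadjusted p below 0.05 was reached by 545 genes in edgeR (4.08% of those tested) and by 241 in DESeq2. The log2 fold changes of the 9 genes ran from -0.14 to 0.10. The lowest was that of Pik3c2b, -0.14 (95% interval -0.29 to 0.01; unadjusted p = 0.0684, adjusted p = 1, edgeR). Its 3 CTK2+GAL libraries, 85.4 to 89.4 CPM, were all below its CTK-2 libraries, 93.2 to 99.6 CPM, but so were those of 5.77% of all genes. In CTK2+GAL cultures its level was 2.94 times that of GAL cultures. For Pld1 the log2 fold change was 0.01 (95% interval -0.28 to 0.31), for Agpat4 0.10 (-0.05 to 0.26) and for Inppl1 -0.02 (-0.14 to 0.10), beside cytokine differences of -2.41, -0.73 and -0.73.

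In GAL against CTL cultures again no gene was called (0%, edgeR and DESeq2). An unadjusted p below 0.05 was reached by 574 genes in edgeR (4.3% of those tested) and by 260 in DESeq2. Of the 9 genes, 8 had log2 fold changes between -0.13 and 0.11. Mtmr11 had a value of 0.95 ± 0.35 (SE; 95% interval 0.22 to 1.68; unadjusted p = 0.0138, adjusted p = 0.997, edgeR), the 60th highest of the 13348 genes, and did not pass the test. Its 3 GAL libraries were all above its CTL libraries, but the nearest, 3.61 and 3.40 CPM, rested on 21 counts each. The value ran from 0.64 without CTL replicate 1 to 1.40 without CTL replicate 3. It uses the CTL libraries through which Mtmr11 was named, and low levels there raise it. Agpat4 had GAL libraries above all CTL libraries as well, with a log2 fold change of 0.11 ± 0.07 (SE; adjusted p = 0.997, edgeR), where 4.09% of all genes had GAL libraries above all CTL libraries.

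**Figure D4:**
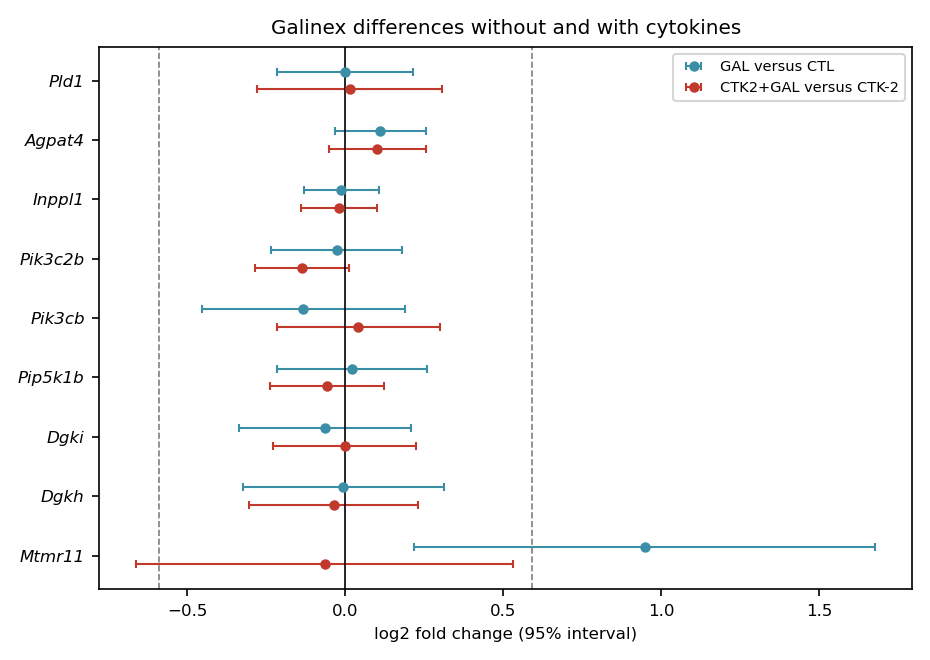
Log2 fold change of the 9 genes between cultures with and without galinex, in the absence (GAL versus CTL) and the presence (CTK2+GAL versus CTK-2) of cytokines; points are edgeR estimates from 3 libraries a group, bars are 95% intervals, the solid line is at 0 and dashed lines are at 0.59 in each direction. Every interval but that of Mtmr11 in GAL versus CTL (0.22 to 1.68) includes 0.

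Among 93 enzymes of the phosphoinositide and phosphatidic acid pathways that were listed, 10 had a symbol: 2 of 10 diacylglycerol kinases, 2 of 14 PI 3-kinase subunits, 1 of 12 PI 4- and PIP kinases, 1 of 17 5- and 4-phosphatases, 1 of 15 3-phosphatases, 3 of 13 phospholipases D and acyltransferases and none of 12 genes of phosphatidic acid use. The others were not analysed here. The only one beside the 9 genes was Gpat4, a glycerol 3-phosphate acyltransferase that makes the lysophosphatidic acid on which Agpat4 acts. It was at 386 CPM on average in GAL and 227 CPM in CTK2+GAL cultures, a log2 fold change of -0.76 ± 0.07 (SE; adjusted p = 4.04e-08, edgeR). Like the 9 genes, Gpat4 was named through genes called in CTK-2 against CTL and so was bound to differ there. Of the genes called there and with a symbol, 86.4% were called in the same direction in CTK2+GAL against GAL.

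The genes with the most similar pattern were sought among 1731 tested genes with a symbol, by Pearson correlation of log2(CPM + 1) over the 12 libraries. These libraries fall into 6 with and 6 without cytokines, so each r holds that division and is given as a description. Nearest to Pld1 were Gpr37l1 and Cav1 (r = 0.998 each), to Agpat4 Sqle (0.989) and Usp46 (0.988), and to Inppl1 Frmd4b (0.996) and Tmcc2 (0.995). Nearest to Pik3c2b were RGD1561149 (0.998) and Trafd1 (0.996), to Pip5k1b Scara3 and Samhd1 (0.995 each), to Pik3cb Asap2 and Rnf165 (0.978 each), to Dgki Jcad (0.979) and Lrp4 (0.962), and to Dgkh Nkain4 (0.971) and Asap3 (0.97). The pattern of Mtmr11 was least like that of any other gene, with r = 0.785 for Gfod2 and 0.765 for Arntl.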

How the data were processed

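RNA-seq was done on 12 libraries of primary rat OPCs. The authors aligned reads with STAR after FastQC and counted those over exons with featureCounts 2.0.0 by gene, reversely stranded, with proper pairs only and duplicates left out (Ensembl release 112 annotation, mRatBN7.2). They deposited raw counts per gene and library, which were used as deposited. Totals were 2600797 to 8978185 counts. PCR reads carry no molecular identifiers in these files, so intervals cover only what the libraries show.

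Groups were taken from the GEO labels. One edgeR 4.0.16 model (R 4.3.3, limma 3.58.1) with a mean for each of the 4 groups was fitted to the 13348 genes that averaged 5 or more counts, after TMM scaling. The quasi-likelihood F test was used, with Benjamini-Hochberg adjustment over all tested genes and the thresholds of the study's methods, an adjusted p of 0.05 and a log2 fold change of 0.59. The SE was taken as the size of the log2 fold change over the root of F. The scripts were tested on simulated counts.

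Symbols were assigned through the mean normalized count and the chromosome in the study's table of genes called in CTK-2 against CTL (relative tolerance 5e-05), without its fold changes, which were not used. In a test on 893 of its entries, 883 matched, 866 of them to exactly 1 gene, and 70 matched after the chromosomes had been shuffled. Of 1786 entries 1732 gave a symbol. Only genes of that table could be named. Genes named in the text are the 9 genes, the pathway genes called in CTK2+GAL against GAL, the cell type markers with a symbol, and for each of the 9 the 2 genes with the most similar pattern. The value of 1 lineage marker is not reported here. The 9 genes and the lists were chosen with earlier results of these data known.

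The labels give replicate numbers but name no pairing. Deviations from the group means correlated with r of 0.263, 0.268 and 0.605 between CTL and GAL libraries of the same number, all above 0.1. Whether these libraries were paired was not tested, and the main model does not pair them. In the comparisons of CTK-2 with CTL, CTK2+GAL with GAL and CTK2+GAL with CTK-2, r was -0.0112 to 0.0881. Alternatives were DESeq2 1.42.0, other scalings and filters, replicate blocks and leaving out each library.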

Additional observations from a re-analysis of the deposited data

How the results depend on the processing

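In CTK2+GAL against GAL, 114 of 117 recomputed values of the 9 genes kept their side of both thresholds. The exceptions were Dgkh, called with total counts (0.59), without GAL replicate 3 (0.66) and without CTK2+GAL replicate 1 (0.61). In CTK-2 against CTL, where the 9 genes were described without a test, 110 of 117 values stayed past both thresholds. The naming of the genes through this comparison favoured that. What this section gives for the 9 genes in CTK-2 against CTL is therefore a description and no support for their difference. Dgkh fell under the fold threshold with no filter on low counts (0.58), with the filter on interquartile range (0.56), without CTL replicate 2 (0.49) and without CTK-2 replicate 3 (0.49), and Dgki without CTK-2 replicate 3 (0.50). Mtmr11 had an adjusted p (edgeR) of 0.0775 without CTL replicate 1 and 0.0885 without CTK-2 replicate 3, and a log2 fold change of 1.55 without CTL replicate 3. The only changes of sign in these comparisons were 2 of Mtmr11 in CTK2+GAL against GAL, the lowest being -0.08 without GAL replicate 3. Of 405 values in the galinex comparisons and the interaction none became a call, and 54 changed sign, all of them no larger than 0.16 in size. Without the filter on low counts 2 genes were called in GAL against CTL and 4 in the interaction, none of them among the 9.

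DESeq2 called 2104 genes in CTK-2 against CTL and 2108 in CTK2+GAL against GAL, where edgeR called 2311 and 2324. Leaving out 1 library gave 2121 to 2523 and 2032 to 2418 genes, 6 to 9 and 7 to 8 of the 9 genes (6 without CTK-2 replicate 3), and 0 in the galinex comparisons and the interaction.

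A replicate block over all groups gave 2320 and 2321 genes, 9 and 7 of the 9, and 0 genes in the other comparisons. A block among CTL and GAL libraries alone, added after the data were seen, gave 2403 and 2410 genes and the same number of the 9, and changed no call of the 9 genes. Mtmr11 in GAL against CTL was 0.86 under that block (adjusted p = 0.745, edgeR).

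Depth limits the low genes: Mtmr11 had 7 counts in CTL replicate 1 and Dgkh 30 in GAL replicate 1, and for neither can a small effect of galinex be told from none.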
